A study of Mus musculus with 3 samples.

Results

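The 38 mouse Hox genes examined lie in 4 clusters, HoxA on chromosome 6, HoxB on chromosome 11, HoxC on chromosome 15 and HoxD on chromosome 2, and they are 38 of the 22367 protein-coding genes annotated on the assembled chromosomes. They were taken by name. The clusters contribute 10, 10, 9 and 9 genes, in the order HoxA to HoxD. Estrogen receptor α (ERα) binding was measured by ChIP-seq, in which an antibody to a protein recovers the DNA it is bound to and that DNA is sequenced. Chromatin came from mammary glands of wild-type BALB/c mice. Their ovaries were removed when they were 6 weeks old, 10 days of rest followed, and 100 ng of 17β-estradiol was given 2 h before collection. The 2 ERα ChIP replicates were each a pool of several mice, and 1 input library, chromatin sequenced without the antibody step, served both. All samples had received estradiol and no vehicle-treated ChIP library was analysed here, so the values describe occupancy after estradiol and not its change. Whole glands were used, and ERα is present in only some luminal epithelial cells, so strong binding in few cells and weak binding in many cannot be told apart. The deposited values are peak lists without RNA levels, so the labelled tissue could not be checked against marker genes.

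Hox genes encode homeodomain transcription factors that give cells their position along the body axis. Within a cluster the genes are ordered by number, from group 13 at the 5′ end to group 1 at the 3′ end, and the low-numbered genes are switched on earlier and more anteriorly than the high-numbered ones. Hox genes are transcribed in the mammary gland as well, and mice lacking Hoxa9, Hoxb9 and Hoxd9 together fail to expand the gland fully in pregnancy. Long-range enhancers in the gene-poor DNA beside the clusters, rather than in them, control much of Hox expression in limbs, genitals and the mammary bud.

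No region occupied in both replicates lay inside any of the 4 clusters. A peak was counted as near a Hox gene when its midpoint was within 100 kb of an annotated transcription start site (TSS) of one of the 38 genes, and peaks overlapping by at least 1 bp between replicates defined a shared region. On this basis 5 of the 6250 shared regions were near Hox genes. Of these, 4 lay in the intergenic DNA past Hoxc4, at the low-numbered end of HoxC, and 1 lay in an intron of Lnp at the far edge of the HoxD window. HoxA and HoxB had 0 shared regions. Another 2 peaks, one in an exon of Hoxa9 and one just past Hoxc4, were present in replicate 1 only.

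ERα binds DNA directly at the estrogen response element (ERE), an inverted repeat of the half-site GGTCA written GGTCANNNTGACC, where N is any base. The stretches below, 150 bases each, are centred on the best ERE-like match of a region, whose 13 bases are in capitals. They come from the ERα peaks within 100 kb of Hox genes, other than the peak in the Hoxa9 exon. Which bases within a peak were bound was not determined. The sequences are those of the NCBIM37 reference (mm9, plus strand), which is not from the BALB/c strain.
Hoxc4 peak of replicate 1 only (chr15:102871558-102871707): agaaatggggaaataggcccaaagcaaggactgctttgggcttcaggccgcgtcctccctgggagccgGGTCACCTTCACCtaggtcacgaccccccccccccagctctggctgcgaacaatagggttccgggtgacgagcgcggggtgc
HoxC region 1 (chr15:102898635-102898784): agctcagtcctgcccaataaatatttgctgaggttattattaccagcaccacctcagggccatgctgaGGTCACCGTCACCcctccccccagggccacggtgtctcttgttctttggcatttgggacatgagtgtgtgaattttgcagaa
HoxC region 2 (chr15:102899567-102899716): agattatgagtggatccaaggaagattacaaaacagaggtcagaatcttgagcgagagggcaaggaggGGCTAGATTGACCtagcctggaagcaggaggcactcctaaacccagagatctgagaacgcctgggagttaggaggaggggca
HoxC region 3 (chr15:102931376-102931525): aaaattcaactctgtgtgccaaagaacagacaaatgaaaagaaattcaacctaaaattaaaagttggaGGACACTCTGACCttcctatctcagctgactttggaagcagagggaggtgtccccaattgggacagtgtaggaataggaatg
HoxC region 4 (chr15:102931960-102932109): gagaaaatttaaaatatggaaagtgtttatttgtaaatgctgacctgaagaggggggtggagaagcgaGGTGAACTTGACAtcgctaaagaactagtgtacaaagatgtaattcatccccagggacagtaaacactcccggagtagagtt
HoxD region (chr2:74408569-74408718): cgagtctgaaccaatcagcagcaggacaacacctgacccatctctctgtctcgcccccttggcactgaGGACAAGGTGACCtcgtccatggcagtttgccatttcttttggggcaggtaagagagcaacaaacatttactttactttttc

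The match at the Hoxc4 peak and that in HoxC region 1 each differed from the ERE at 1 position, G10C (consensus base, position counted from 1 at the 5′ end of the consensus, site base). HoxC region 3 and the HoxD region also differed at 1 position, T3A in both. HoxC region 2 differed at T3C and C4T, and another of its sequences matched equally well. HoxC region 4 differed at C4G and C13A. The matches shown lay within 70 bp of the midpoints of their regions, although only the 400 bp around a midpoint were searched, which limits that distance. In all, 3 of the 5 shared regions held an ERE with at most 1 mismatch in the 400 bp around their midpoint, against 31.1% of all shared regions. At this number of regions the shares could not be told apart, and no test was made. None of the 5 held an ERE without mismatch, which 6.60% of all shared regions did, and all 5 held one with at most 2 mismatches, which 67.3% did. Windows of the same size 5 kb to either side of shared regions, free of peaks, gave the background. There an ERE with at most 1 mismatch was in 1.10% and one with at most 2 in 15.5%.

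The other consensus sequences searched on both strands were those of AP1 (TGACTCA or TGAGTCA), SF1 (CAAGGTCA, which contains the ERE half-site), PAX2 (GTCACG) and FOXA1 (TATTTAC or TGTTTAC). The FOXA1 sequence was found in HoxC regions 3 and 4, in 14.0% of all shared regions and in 10.7% of the windows 5 kb to either side. HoxC regions 3 and 4 lie under the same replicate 2 peak. AP1, SF1 and PAX2 sequences were found in 0 of the 5 regions, against 16.7%, 9.35% and 9.16% of all shared regions. With 5 regions none of these shares could be told apart from that of all shared regions, and no test was made. The PAX2 sequence was present in the Hoxc4 peak of replicate 1. These matches describe the sequence and do not show which factor was bound.

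**Figure D1:**
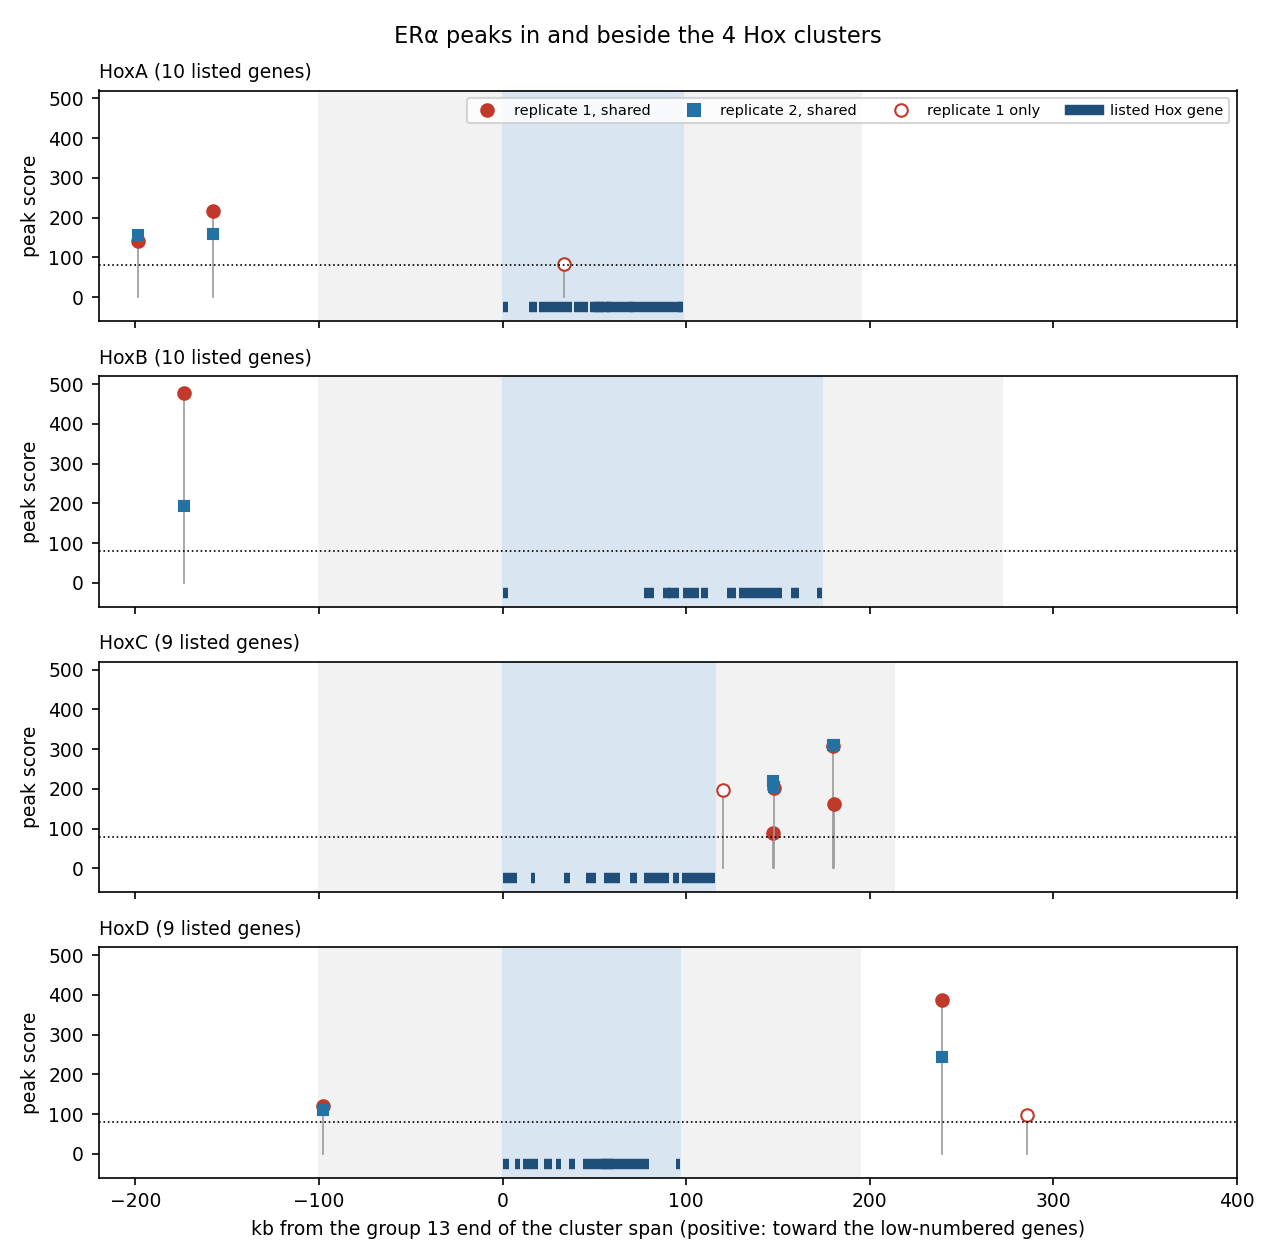
Peak scores (y axis) of shared regions and of peaks found in replicate 1 only, by distance in kb from the group 13 end of each cluster (x axis), with Hox genes as dark bars, the cluster span in blue, the DNA within 100 kb of a Hox TSS in grey and the score of 80 dotted. The spans hold 1 open circle, at Hoxa9, and 0 shared regions, while the HoxC regions sit on the low-numbered side.

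The authors' peak caller gave each peak a score of −10 log10 p, with p from the comparison with the input, and no score was below 80. HoxC region 1 (chr15:102898445-102898850) scored 88.2 in replicate 1, rank 8759 of 9607 peaks, and 219 in replicate 2, rank 2494 of 6819. HoxC region 2 (chr15:102899351-102899951) scored 203 and 205. The midpoints of these neighbours were 1004 bp apart and 33.8 and 34.8 kb downstream of the nearest Hoxc4 TSS, and Hoxc4 was also the nearest gene of any kind. Hoxc4, the lowest-numbered gene of its cluster, is expressed most anteriorly among the HoxC genes.

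HoxC region 3 (chr15:102931133-102931628) scored 308 in replicate 1, rank 2477, and HoxC region 4 (chr15:102931753-102932276) scored 161, rank 4842. In replicate 2 a single peak of 1305 bp covered both, with a score of 309.7 and rank 1725. Their midpoints were 634 bp apart, 66.6 and 67.2 kb downstream of Hoxc4. The nearest TSS was that of the long noncoding RNA gene D930007P13Rik, at 45.9 and 45.2 kb. The nearest protein-coding gene was Smug1, a uracil-DNA glycosylase gene of base excision repair, at 57.0 and 56.4 kb. In replicate 1 the HoxC regions thus formed a pair of doublets 31.7 kb apart, while replicate 2 had a single peak over regions 3 and 4. Of all shared regions, 10.4% had another within 2 kb, and 1.08% of the shared replicate 2 peaks covered more than 1 replicate 1 peak.

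The HoxD region (chr2:74408451-74408867) scored 120.2 in replicate 1 and 111 in replicate 2, ranks 6481 and 4994. It lay 97.7 kb upstream of Hoxd13, a gene of digit and genital development, and just inside the limit of 100 kb. It was 7.62 kb downstream of the TSS of Lnp, which encodes an endoplasmic reticulum protein and neighbours the cluster. The next shared region by distance lay outside the limit, 145 kb past Hoxd1.

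The regions near Hox genes were also ranked by the lower of their 2 scores. The share of all shared regions with a lower value was 8.24% for HoxC region 1, 59.1% for region 2, 72.8% for region 3, 47.8% for region 4 and 25.2% for the HoxD region. The replicates differed most at HoxC region 1. Its replicate 1 score was 0.402 of its replicate 2 score, and among the 6097 pairs of peaks that overlapped only each other, 2 had a lower ratio. For HoxC region 2 and the HoxD region the ratios were 0.991 and 1.08, below which lay 18.0% and 26.6% of pairs. Regions 3 and 4 share a replicate 2 peak and have no ratio of this kind. Whether the authors' peak caller divided the reads of the doublet differently in the replicates was not tested, since the lists hold no reads.

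**Figure D2:**
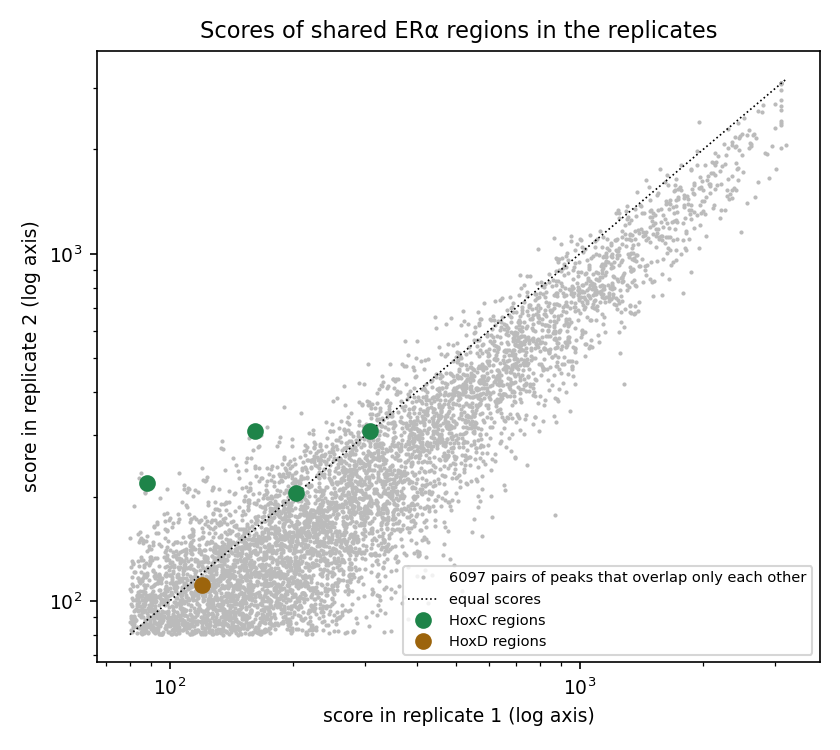
Score in replicate 2 against score in replicate 1, both on log axes, for 6097 pairs of peaks that overlap only each other (grey) and the 5 shared regions near Hox genes (coloured). HoxC region 1, at 88.2 and 219, lies at the upper edge of the grey pairs, and the regions at 161 and 308 on the x axis share 1 replicate 2 peak.

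Of the replicate 1 peaks near Hox genes, 5 of 7 overlapped a replicate 2 peak (71.4%, exact Clopper-Pearson 95% interval 29.0% to 96.3%), against 64.9% of all replicate 1 peaks. Of the replicate 2 peaks near Hox genes, 4 of 4 overlapped a replicate 1 peak (100%, 39.8% to 100%), against 90.6% of all replicate 2 peaks. These intervals cover counting error only, and the difference from all peaks was not detectable with so few. The median score near Hox genes was 161 in replicate 1 and 212 in replicate 2, against 162 and 161 over all peaks.

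The only peak inside a cluster was at Hoxa9 (ENSMUSG00000038227), whose product acts in blood stem cells and in the mammary gland. This peak (chr6:52176941-52177301) was in replicate 1 only, with a score of 83.7, rank 9237 of 9607. Only 3.84% of replicate 1 peaks had a lower score. It lay 68 to 428 bp downstream of an annotated Hoxa9 TSS, and its midpoint fell in an exon, in the untranslated part. The best ERE-like match in its 400 bp had 3 mismatches, and none of the other consensus sequences was found. Mir196b, a microRNA gene within the longest annotated Hoxa9 transcript, was 2778 bp away from the peak at its nearer end.

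The second peak of replicate 1 alone (chr15:102871353-102871882) was intergenic, 6.79 kb downstream of a Hoxc4 TSS and 4.34 kb past the end of the cluster. Its score of 197 was above that of 95.9% of the 3370 replicate 1 peaks without a partner, whose median was 105. Its window held 61.5% G and C, against a median of 48.0% over all shared regions. Of the peaks near Hox genes, those at Hoxa9 and Hoxc4 were the only ones within 10 kb of a Hox TSS, and neither had a counterpart in replicate 2.

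Of the 38 Hox genes, 6 had a shared region within 100 kb of a TSS, against 38.1% of all protein-coding genes. These were Hoxc4, Hoxc5 and Hoxc6 with 4 regions each, Hoxc8 and Hoxc9 with 2 each, and Hoxd13 with 1. Hoxc6 and Hoxc8 are known from the mammary lineage, and forced Hoxc8 expression can start extra mammary buds. The 5 HoxC genes were counted through the same 4 regions, so they are not independent, and no test was made. Hoxc10 lay just outside the limit, with its nearest shared region at 101 kb. The other 31 genes had their nearest shared region at 104 kb or farther, up to 345 kb for Hoxb1.

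The nearest shared region of every Hox gene lay beyond an end of its cluster. In HoxC it grew from 33.8 kb at Hoxc4 to 147 kb at Hoxc13. In HoxB, where the nearest region was on the Hoxb13 side, it grew toward the low-numbered genes, from 173 kb at Hoxb13 to 345 kb at Hoxb1. HoxA genes were 158 to 253 kb from a shared region and HoxD genes 97.7 to 151 kb. The median over the 38 genes was 165 kb, against 160 kb over protein-coding genes (quartiles 51.3 and 423 kb).

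**Figure D3:**
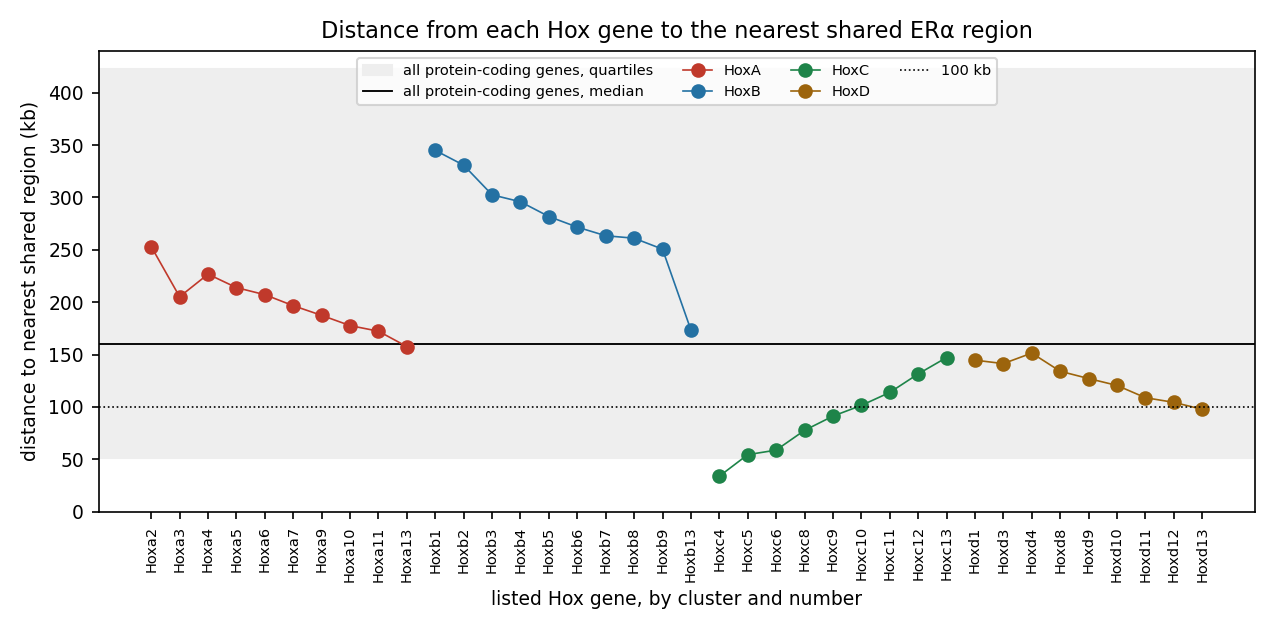
Distance in kb (y axis) from each of the 38 Hox genes (x axis, by cluster and number) to the nearest shared ERα region, with the median of 160 kb and quartiles of all protein-coding genes as a line and a grey band. Only 5 HoxC genes and Hoxd13 are below the dotted line at 100 kb, and the HoxB genes other than Hoxb13 lie above 250 kb, as does Hoxa2.

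Up to 100 kb the share of Hox genes with a shared region was below that of protein-coding genes, and at 200 kb above it. Within 10 kb 0 of 38 had a shared region, against 8.09% of protein-coding genes. A count of 0 of 38 allows a share of up to 7.89% by the limit of 3 counts, and up to 9.25% by the exact Clopper-Pearson 95% interval. The exact interval includes 8.09%, so a lower share was not shown at this distance. Neighbouring Hox genes also share their windows and are fewer than 38 independent cases. Within 50 kb the count was 1 of 38, Hoxc4, against 24.5%, and within 200 kb it was 24 of 38 (63.2%) against 56.0%. The 24 genes were counted through 9 shared regions, so they are not independent, and no test was made. By the separate lists, 18 of 38 genes had a replicate 1 peak within 100 kb against 49.6%, and 6 of 38 had a replicate 2 peak against 40.3%. The 18 included all 10 HoxA genes, counted through the single weak Hoxa9 peak, and Hoxc10 and Hoxc11, counted through the Hoxc4 peak of replicate 1. Within 10 kb of a replicate 1 peak were Hoxa7, Hoxa9, Hoxa10 and Hoxc4, 4 of 38 against 12.4%.

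**Figure D4:**
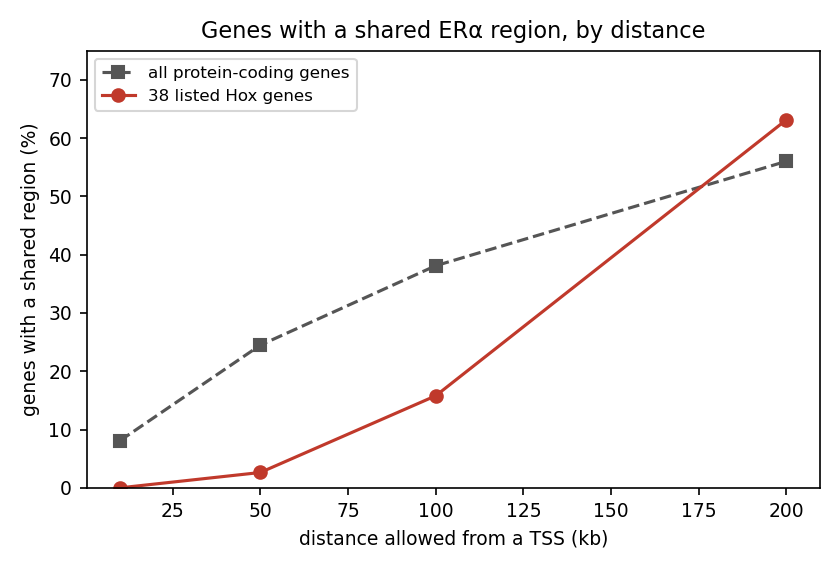
Percent of genes with a shared ERα region (y axis) within 10, 50, 100 or 200 kb of a TSS (x axis), for the 38 Hox genes (circles) and all protein-coding genes (squares). The Hox share is below that of protein-coding genes up to 100 kb, at 15.8% against 38.1%, and above it at 200 kb, at 63.2% against 56.0%.

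The lack of shared regions inside the clusters has to be read against their small size. The 4 spans, from the first to the last listed gene of each cluster, cover 485 kb, and at the mean rate of 2.35 shared regions per Mb of the assembled chromosomes that length would hold 1.14. The DNA within 100 kb of a Hox TSS covers 1.28 Mb and held 3.92 shared regions per Mb, against 3.08 per Mb within 100 kb of any protein-coding TSS. All 5 regions behind this rate were outside the spans. Of these, 4 lay beside HoxC, and HoxC regions 3 and 4 are under the same replicate 2 peak. With so few regions the rates could not be told apart, and no test was made.

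HoxB was the only cluster without any peak within 100 kb of its genes. HoxC and HoxD also lacked peaks inside their spans, and HoxD had only 1 shared region within 100 kb, 97.7 kb from Hoxd13. Neither list held a peak near the 10 HoxB genes, among them Hoxb13, a prostate regulator, and Hoxb9. The closest region to HoxB (chr11:95881980-95882374) was shared, with scores of 477 and 193, and lay 173 kb from Hoxb13 and 3.68 kb upstream of Gip, an incretin hormone gene. These lists name sites past a p-value of 1e-08 and give no depth, so binding weaker than that in HoxB was not measured.

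Between 100 and 200 kb from a Hox TSS there were 4 more shared regions, and none of them had an ERE with fewer than 2 mismatches. On the Hoxa13 side of HoxA, past Evx1, a region (chr6:52368227-52368717) scored 217 and 159 and another (chr6:52409189-52409604) scored 140 and 157. They lay 158 and 199 kb upstream of Hoxa13, which acts in limb and genital development. On the Hoxd1 side of HoxD, a region (chr2:74745365-74745963) scored 387 and 245, 145 kb past Hoxd1 and 38.6 kb downstream of Mtx2, a gene of mitochondrial import. The fourth was that beside Gip.

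The cluster DNA is rich in CpG, as is known of Hox loci. The ratio of observed to expected CpG was 0.349 in HoxB, 0.357 in HoxC, 0.460 in HoxD and 0.480 in HoxA, against 0.191 over the assembled chromosomes, and the GC content was lowest in HoxB, at 48.9%, against 41.8%. The spans held 8 EREs with 1 mismatch and 0 without mismatch. The numbers were 4 in HoxB, 2 in HoxC, 1 in HoxD and 1 in HoxA, which together make 16.5 per Mb, against 28.3 per Mb with 0 or 1 mismatch over the assembled chromosomes. None of the 8 was covered by a peak in either list, so none lay in a shared region. Across the assembled chromosomes, 2.47% of EREs with 1 mismatch and 17.9% of those without mismatch lay in a shared region. With 8 sites in the spans, all with 1 mismatch, a lower share was not shown. The only sites of HoxA and of HoxD are shown as examples, with the whole 13 bases in lower case.
Hoxa9 intron (chr6:52175124-52175136): ggtcagattgccc
Hoxd3 and Hoxd4 introns (chr2:74563112-74563124): ggtcaaagtgagc

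RefSeq promoter sequences, from 250 bases before to 50 after a gene's start on GRCm38.p6, were matched for 22 of the 38 genes, with 24 promoters. Most were of HoxA and HoxD. Hoxc4 was the only HoxC gene among them, and Hoxb1, Hoxb4 and Hoxb8 were the only HoxB genes. All 24 were placed on NCBIM37 by exact sequence, and none was overlapped by a peak of either replicate. The Hoxa9 promoter came closest, with 18 bp between it and the replicate 1 peak. An ERE with at most 1 mismatch was in 0 of the 24, against 0.877% of all 32851 promoters, and one with at most 2 mismatches was in 1, that of Hoxb1, against 11.1%. The AP1 sequence was in 1 promoter, that of Hoxd11, against 5.20%, and the SF1 sequence in 0, against 1.56%. The PAX2 sequence was in 2, those of Hoxd10 and Hoxd11, against 8.22%, and the FOXA1 sequence in 2, those of Hoxa2 and Hoxd1, against 6.54%. With 24 promoters none of these shares could be told apart from that of all promoters.

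Hox proteins bind DNA with partners of the TALE homeodomain class, the PBX, MEIS and PKNOX proteins. Over all protein-coding genes, 38.1% had a shared region within 100 kb of a TSS. Pknox2 had 3 such regions, the strongest of them in its own intron (chr9:36923700-36924264), with scores of 1346 and 897 and an ERE with 1 mismatch. Meis1 had 1 region, 39.6 kb upstream, with scores of 928 and 538. Pbx2 had 2 regions, and Meis2 and Pknox1 had 1 each. Pbx3, Pbx4 and Meis3 had none, and their nearest shared regions were at 895, 328 and 146 kb.

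The ParaHox genes, a sister group of the Hox clusters, were examined in the same way. Of Gsx1, Gsx2, Pdx1, Cdx1, Cdx2 and Cdx4, 1 of 6 had a shared region within 100 kb, against 38.1% of protein-coding genes. This was Cdx1, a regulator of intestinal identity, with scores of 140 and 113 at 6.89 kb upstream. The ParaHox genes are few, and Gsx1, Pdx1 and Cdx2 had the same nearest shared region, so a lower share was not shown. Of the even-skipped genes that border the clusters, Evx2 was 88.8 kb from the HoxD region and Evx1 was 105 kb from the nearest region of HoxA. The highest lower score within 100 kb was 308 for the Hox genes and 897 for Pknox2.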

How the data were processed

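ERα ChIP-seq reads of 51 nt were mapped by the authors with BWA to mm9. MACS was then run on either replicate alone with the input as background, with a p-value limit of 1e-08. The MACS version is not given in the sources used here. The deposited files give the position and score of each peak, and no reads or depth. TSSs, exons and introns are those of GENCODE version M1 on NCBIM37 (mm9), in which Hoxa3 has 2 identifiers that were counted as 1 gene. Shared regions are the intervals covered by both peaks of an overlapping pair. Motifs were searched in 400 bp windows around midpoints with numpy 2.4.6 and pysam 0.24.0.

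Genes, lists and sites were chosen with earlier results of these data known. Named sites are all peaks inside a cluster span, the 3 shared regions with the highest lower score in each cluster window, those with an ERE of at most 1 mismatch and the strongest unshared peak of each list, which together took in every peak near a Hox gene. Regions from 100 to 500 kb were described after their values were seen. With 1 group of 2 replicates, no comparison between conditions and no test was made. The overlap and ERE searches were tested on simulated data. Intervals came from scipy 1.17.1. Tables were handled in pandas 2.3.3 under Python 3.11.15, the genome was indexed using samtools 1.23.1, and matplotlib 3.10.9 drew the plots. Some results on related genes are not reported here.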

Additional observations from a re-analysis of the deposited data

How the results depend on the processing

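With a score of at least 200 in both lists, 2 shared regions remained near Hox genes, HoxC regions 2 and 3. The count was 3 with a reciprocal overlap of 50%, when the long replicate 2 peak over HoxC regions 3 and 4 no longer paired with either, and 2 with midpoints within 100 bp, when HoxC region 2 was lost as well. The same values, 2, 3 and 2, were found for the replicate 1 peaks that overlapped replicate 2. For the reciprocal overlap and the midpoints these are of 7 peaks. At a score of at least 200, the replicate 1 peaks other than HoxC regions 2 and 3 were themselves below the limit, so that value is not of 7. The distance mattered most. At 10, 50 and 200 kb the number of shared regions was 0, 2 and 9, and that of Hox genes 0, 1 and 24, and at 500 kb, a distance added after the data were seen, 15 regions were counted. With each replicate alone the number of regions was 4 to 7, of genes 6 to 18 and of peaks inside a cluster 0 to 1. In replicate 1, the peak inside a cluster is that at Hoxa9, which adds 10 of the 18 genes, and the peak past Hoxc4 adds Hoxc10 and Hoxc11. The number of regions with an ERE was 0 without mismatch and 5 with at most 2. Of the 36 alternatives, the other 19 stayed within 1.5 times the count reported, among them the use of every annotated Hox symbol. No paired analysis was possible because there is only 1 group with replicates. The lists hold no reads, so weaker occupancy and the spread between animals could not be assessed.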

Other observations

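Between 200 and 500 kb from a Hox TSS there were 6 more shared regions, and each lay closer to a gene outside the clusters. The strongest beside HoxA (chr6:52454771-52455565) scored 516 in replicate 1 and 295 in replicate 2 and was 51.7 kb from Hibadh, an enzyme gene of valine breakdown. Beside HoxC, a region in an intron of Zfp385a (chr15:103145375-103146002) scored 501 and 227, and one in an intron of Nckap1l, a gene of the actin machinery of blood cells (chr15:103300546-103301088), scored 230 and 270 and held an ERE with 1 mismatch. Beside HoxB, a region in an exon of Nfe2l1 (chr11:96689210-96689784), a regulator of proteasome genes, scored 156 and 128 and also held an ERE with 1 mismatch. HoxD had 0 shared regions between 200 and 500 kb on either side.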
